A study of Mus musculus with 12 samples.

Results

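The regions described here are stretches of open chromatin that had a peak in the deposited lists of circulating Ly6C-high monocytes and of both CD11b-high liver macrophage groups, and in none of the 3 lists of F4/80-high liver macrophages. They number 5742 of 100354 merged regions, or 5.72%. Peaks of all 6 lists that overlapped by 1 bp or more were merged into regions, and a region was a member when it held a peak of the blood, Ly6CHi-RM and Ly6CLo-RM lists and of no other list. Members were thus chosen by the measured peak calls themselves, so their presence in 3 lists, their scores and their signals are descriptions and carry no test. Position, neighbouring genes and promoter sequence were not used in the choice.

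ATAC-seq marks open chromatin with a transposase that cuts accessible DNA and joins sequencing adapters to the ends. It was applied to 12 libraries of sorted C57BL/6J mouse cells, 2 per group. The lists that hold the members all came from mice on the NASH diet, which models nonalcoholic steatohepatitis: blood monocytes with high Ly6C (Blood-Ly6CHi-NASH), and recruited liver macrophages with high CD11b and either high (Ly6CHi-RM) or low Ly6C (Ly6CLo-RM). The lists that lack them were Tim4-positive F4/80-high Kupffer cells from mice on the control diet (KC-H) and the NASH diet (KC-N), and Tim4-negative F4/80-high cells from the NASH diet (KN-RM). The labels give no age or sex, and no blood or CD11b-high group on the control diet was analysed here. Each group had 1 deposited list made from both of its libraries, so no value per library exists, no spread between replicates can be given, and no difference between groups was tested. Intervals below are 95% Wilson intervals, or Newcombe-type intervals for a difference of shares, and cover counting error only.

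Ly6C-high monocytes leave the bone marrow by way of the chemokine receptor Ccr2, circulate in blood and enter inflamed tissue, where they can become macrophages. Kupffer cells are the resident macrophages of the liver, and recruited monocytes can take on Kupffer cell features in an emptied niche. Open regions away from gene starts often act as enhancers, and in myeloid cells many of them carry sites for PU.1 (an ETS factor), C/EBP, RUNX, AP-1 and KLF proteins.

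The sort labels were checked against marker genes. Regions at Timd4, which encodes Tim4, held 17 peaks of KC-H, 1 of KC-N, 0 of KN-RM, 0 of blood, 0 of Ly6CHi-RM and 1 of Ly6CLo-RM. At Clec4f, a Kupffer cell lectin, the F4/80-high lists held 18, 7 and 5 peaks and the other 3 lists at most 1. The KC-N list thus had 1 peak at the gene its sort is named for. Among markers of Ly6C-high monocytes, Chil3 had 2 blood peaks, 2 Ly6CHi-RM peaks and 0 in the other 4 lists, and F13a1 had 11, 11 and 6 peaks in blood, Ly6CHi-RM and Ly6CLo-RM against 0, 2 and 2 in KC-H, KC-N and KN-RM. At Cd5l, another Kupffer cell gene, the F4/80-high lists held 24, 13 and 10 peaks, in the order used for Clec4f. Every other list held at most 5 there. At Marco the same order gave 15, 7 and 0, and the remaining lists held 1 each. Some other markers did not separate the lists by peak number. Plac8 had 12 peaks in blood and 18 in KC-H, and Ly6c2 had 4 in blood and 3 in each F4/80-high list. The Kupffer cell marker Vsig4 had 6 peaks in blood and 5 in KC-H. List lengths differed from 69616 peaks in blood to 34293 in KN-RM, and KC-H, Ly6CHi-RM, Ly6CLo-RM and KC-N had 63501, 61492, 54621 and 50550. The mean signal, the authors' normalized tag count per peak, was 94.2, 89.8 and 83.4 in the lists that hold the members. It was 28.3 for KC-H, 38.5 for KC-N and 27.2 for KN-RM, so absence of a peak was read from lists of lower signal. The part of list length and signal in membership was not tested.

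Few members lay at gene starts, and those that did included promoters of monocyte genes. RefSeq promoter windows, 250 bases before to 50 after a start site on GRCm38.p6, were held at least in part by a member in 158 of 21263 windows, belonging to 148 of 17492 genes. The 250 bases before the start are shown for 6 genes of the monocyte, migration and RUNX lists. Their windows held a member and no F4/80-high peak. S1pr5, of the chemoattractant receptor list, also met this choice and is not shown. The S1pr5 bases hold 22 CpG dinucleotides and none of the motifs named below. All stretches are read in the direction of transcription. A member covers only part of some of them, so a match can lie outside the member. Capitals mark matches on either strand to short motifs: GAGGAAG for PU.1-type ETS factors, TTGCNNAA for C/EBP, TGTGGT for RUNX, TGANTCA for AP-1 and GGGNGTGG for KLF and SP factors.
Ly6c2, chr15:75111938-75112187, minus strand: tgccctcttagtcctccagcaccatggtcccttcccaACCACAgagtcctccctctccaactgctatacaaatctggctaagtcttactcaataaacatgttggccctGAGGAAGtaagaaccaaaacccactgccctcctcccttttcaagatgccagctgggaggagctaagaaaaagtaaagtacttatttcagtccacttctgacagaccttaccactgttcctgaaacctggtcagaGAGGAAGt
Anxa1, chr19:20390672-20390921, minus strand: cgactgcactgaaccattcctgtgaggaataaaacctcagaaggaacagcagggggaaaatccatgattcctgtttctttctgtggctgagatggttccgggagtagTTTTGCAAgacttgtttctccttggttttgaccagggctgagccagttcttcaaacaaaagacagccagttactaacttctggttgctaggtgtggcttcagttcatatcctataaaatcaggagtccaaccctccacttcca
S100a4, chr3:90603520-90603769, plus strand: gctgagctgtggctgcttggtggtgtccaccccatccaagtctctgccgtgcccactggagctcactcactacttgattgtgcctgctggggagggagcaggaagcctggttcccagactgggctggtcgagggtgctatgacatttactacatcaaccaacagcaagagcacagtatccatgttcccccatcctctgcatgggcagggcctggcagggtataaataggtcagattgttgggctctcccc
Ltb4r1, chr14:55765712-55765961, plus strand: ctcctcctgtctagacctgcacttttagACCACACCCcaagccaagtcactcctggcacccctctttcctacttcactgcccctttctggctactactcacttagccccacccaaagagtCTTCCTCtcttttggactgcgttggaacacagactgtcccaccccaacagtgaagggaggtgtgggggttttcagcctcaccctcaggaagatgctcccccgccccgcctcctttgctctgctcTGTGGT
Pglyrp1, chr7:18884440-18884689, plus strand: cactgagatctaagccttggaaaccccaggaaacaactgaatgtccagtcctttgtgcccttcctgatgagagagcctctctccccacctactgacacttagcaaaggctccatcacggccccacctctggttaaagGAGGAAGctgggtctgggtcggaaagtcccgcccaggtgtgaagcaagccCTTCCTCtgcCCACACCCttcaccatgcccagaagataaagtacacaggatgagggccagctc
Runx3, chr4:135152295-135152544, plus strand: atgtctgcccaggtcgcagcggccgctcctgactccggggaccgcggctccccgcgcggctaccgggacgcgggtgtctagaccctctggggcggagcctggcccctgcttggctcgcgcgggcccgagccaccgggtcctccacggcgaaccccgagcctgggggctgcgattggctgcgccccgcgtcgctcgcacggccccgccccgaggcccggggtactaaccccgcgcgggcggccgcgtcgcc

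The Ly6c2 member spans 75111909 to 75112125 on chromosome 15. The stretch shown holds 2 ETS-type matches, both within the member, and 1 RUNX match, which lies upstream of the member and outside it. Another Ly6c2 start site has its own stretch, 75111972 to 75112221, which is not shown and holds 1 ETS-type and 1 RUNX match. Ly6c2 encodes the Ly6C antigen used in the sort. Its member had a signal of 51.4 in blood, 103.7 in Ly6CHi-RM and 47.7 in Ly6CLo-RM. The nearest F4/80-high peak centre was 25.2 kb away. Ly6c2 has close copies beside it, so reads from Ly6c1 and Ly6c2 may not be fully told apart.

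Anxa1 encodes annexin A1, a protein known for limiting leukocyte adhesion and resolving inflammation. The member over its start site, centred 19 bases before it, had signals of 158.6, 66.2 and 58.8 in blood, Ly6CHi-RM and Ly6CLo-RM, and the sequence above holds 1 C/EBP match. S100a4 encodes a calcium-binding protein of motile cells, and its promoter member had signals of 175.6, 40.1 and 60.6 with none of the 5 motifs in the bases shown. The start-site member of Ltb4r1, a leukotriene B4 receptor, was lower in its lists, at 41.7, 17.7 and 31.8. The Ltb4r1 bases shown hold 1 ETS-type, 2 RUNX and 1 KLF and SP match. Of these, 1 RUNX match and the KLF and SP match share letters and lie upstream of the member, outside it.

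Pglyrp1, a peptidoglycan recognition protein, had a promoter member with signals of 36.9, 25.5 and 28.2, and its bases hold 2 ETS-type matches and 1 KLF and SP match. At Runx3, a RUNX factor of lymphoid and myeloid cells, the member lies over an internal start site and had signals of 61.6, 68.2 and 34.9. Its bases hold 38 CpG dinucleotides and none of the 5 motifs, against 0 CpG in the Ly6c2 bases. The promoter members thus ranged from CpG-poor to CpG-rich sequence.

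Across the 158 windows, the mean was 18.0 CpG per 300 bases, against 23.6 in the 8189 windows held by a region of all 6 lists and 15.4 in all 21263 windows. The members' centres were upstream of the start in 127 of 158 windows, with a median of -49 bases. TGTGGT was found in 19.6% of member windows (interval 14.2 to 26.5%), 15.0% of all windows, 11.4% of windows of regions in all 6 lists and 6.57% of 137 windows of regions found only in blood and Ly6CHi-RM. F4/80-high-only regions had it in 6 of 43 windows. The member share was 14.9% (20 of 134) with lists of equal length and 18.7% with the better-scored 50%. It was 21.7% with no nearby F4/80-high centre and 19.3% with the 50% overlap. The interval counts windows as independent, although the 158 windows belong to 148 genes. GAGGAAG was found in 15.2% of member windows and 13.6% of all windows, TTGCNNAA in 10.1% and 10.2%, TGANTCA in 7.59% and 6.99%, and GGGNGTGG in 25.3% and 19.4%. Of 24 motifs searched on both strands, the intervals for member windows and all windows did not overlap for 1, the SMAD palindrome GTCTAGAC, which rested on 2 windows (1.27%, against 0.226% of all). For the other 23 motifs the intervals overlapped. Member windows with an F4/80-high peak elsewhere in the window numbered 22.

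The members were mostly distant from gene ends. Of the members, 8.76% (interval 8.06 to 9.52%) had a protein-coding gene's end no more than 1 kb away, against 21.9% of all merged regions and 40.4% of the 25441 regions of all 6 lists. The difference from the latter was -31.7 percentage points (-32.6 to -30.7). The share in the 1896 regions found in all 3 F4/80-high lists only was 8.02%, a difference of 0.74 points (-0.74 to 2.11), and in the 6169 regions of blood and Ly6CHi-RM only it was 8.51%, a difference of 0.25 points (-0.76 to 1.26). Both of these intervals include 0, so no difference from these 2 sets was detectable in the share within 1 kb of a gene end. Counted from RefSeq start sites instead, 5.97% of members, 18.4% of all merged regions and 36.5% of regions of all 6 lists lay within 1 kb. By start sites the share of members was above the 5.11% of regions of blood and Ly6CHi-RM only, by 0.87 points (0.046 to 1.70), and the difference from F4/80-high-only regions was 0.22 points (-1.06 to 1.38).

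Inside a gene lay 54.2% of members, less than the 60.9% of F4/80-high-only regions (difference -6.69 points, -9.21 to -4.12), and close to the 54.1% of regions in all 6 lists (0.05 points, -1.38 to 1.47). The median distance to a gene end was 12.9 kb for members, 16.1 kb for F4/80-high-only regions and 2.63 kb for regions of all 6 lists. No protein-coding gene lay within 100 kb of 333 members (5.80%). Members made up 5.10% of the regions of chromosome 11 and 7.24% of those of chromosome X, the lowest and highest share. Exons, introns and UTRs were not used here, since the gene table gives gene starts and ends only.

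**Figure D1:**
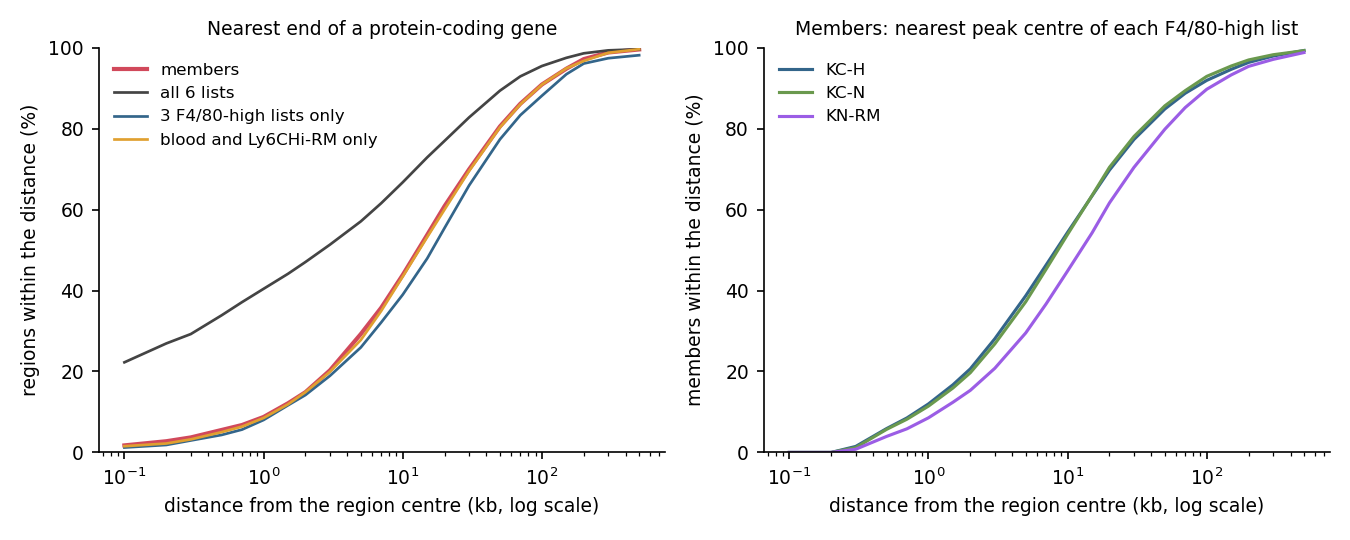
Cumulative share of regions (percent) by distance in kb on a log scale, to the nearest gene end for 4 sets of merged regions (left) and, for members, to the nearest peak centre of KC-H, KC-N and KN-RM (right). The member curve runs with that of regions of blood and Ly6CHi-RM only. It lies below that of regions in all 6 lists, where 40.4% lie within 1 kb. Near 1 kb it is close to the curve of F4/80-high-only regions, and farther out it lies above, with 43.9% against 39.0% within 10 kb. At 1 kb 12.0% of members have a KC-H centre, 11.4% a KC-N centre and 8.55% a KN-RM centre.

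Some members lay beside an F4/80-high peak and others far from any. Of the 5742, 827 (14.4%, 13.5 to 15.3%) had an F4/80-high peak centre within 1000 bp without overlap. Within 5000 bp the share was 43.7%, and the median distance was 6493.5 bp. Of regions of blood and Ly6CHi-RM only, 12.5% (11.7 to 13.3%) had an F4/80-high centre within 1000 bp. The regions of the F4/80-high lists only were nearer to peaks of the blood and CD11b-high lists, with 25.6% (23.7 to 27.6%) within 1000 bp. That share is measured against other lists, of other lengths, and the part of list length in it was not tested. At the 1 bp limit itself, 20 members had an F4/80-high peak 20 bp away or less, such as those at Ube2o and Cop1 with a gap of 1 bp and Phlpp1 with 2 bp. Just outside, 4 regions with 1 F4/80-high list overlapped it by 20 bp or less, such as Cited2 by 4 bp of a KC-H peak, Gas7 by 15 bp of a KC-N peak and Nfatc2 by 18 bp of a KC-H peak.

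The members with the best scores show both situations. The member with the best ranks in all 3 lists lies 0.129 kb from an end of Leprot, which encodes a regulator of leptin receptor trafficking, with signals of 570, 509.4 and 510.5, and an F4/80-high centre lay 0.315 kb from it. Among members with no F4/80-high centre within 1000 bp, the best was 93.4 kb from the nearest gene, Nxt1, with signals of 469.6 in blood, 277.1 in Ly6CHi-RM and 292 in Ly6CLo-RM. A member inside Sgms2, a sphingomyelin synthase, had 525.4, 528.7 and 151.8, and it was 1 of 7 members at that gene. The start of F10, which encodes coagulation factor X, had a member at 309.5, 303.2 and 94.9. Zfp64, Lrrk2, Tox3, Gorab and Setbp1 and a stretch of chromosome 2 with no gene within 100 kb held further members of this kind, with blood signals from 196.5 at Lrrk2 to 435.6 at the stretch without a gene.

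Most members ranked below the middle of each list. Their median signal was 45.1 in blood, 34.9 in Ly6CHi-RM and 28.2 in Ly6CLo-RM. The medians of all peaks of these lists were 50, 46.4 and 44.1, and those of regions in all 6 lists were 124.2, 110.9 and 88.8. On the authors' score, where 0% is the best peak of a list, members had a median rank of 54.7% in blood, 63.5% in Ly6CHi-RM and 73.9% in Ly6CLo-RM. The best-scored 10% of the lists held 68, 20 and 15 members, and the worst-scored 10% held 312, 619 and 1285. In the better 50% of all 3 lists were 597 members, of which 527 had no F4/80-high centre within 1000 bp. Across members, Spearman's correlation of signals was 0.62 between blood and Ly6CHi-RM, 0.44 between both CD11b-high lists and 0.24 between blood and Ly6CLo-RM. Over regions of all 6 lists these were 0.89, 0.90 and 0.79. The points are regions that share their libraries, and members were chosen by calls made from these signals.

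**Figure D2:**
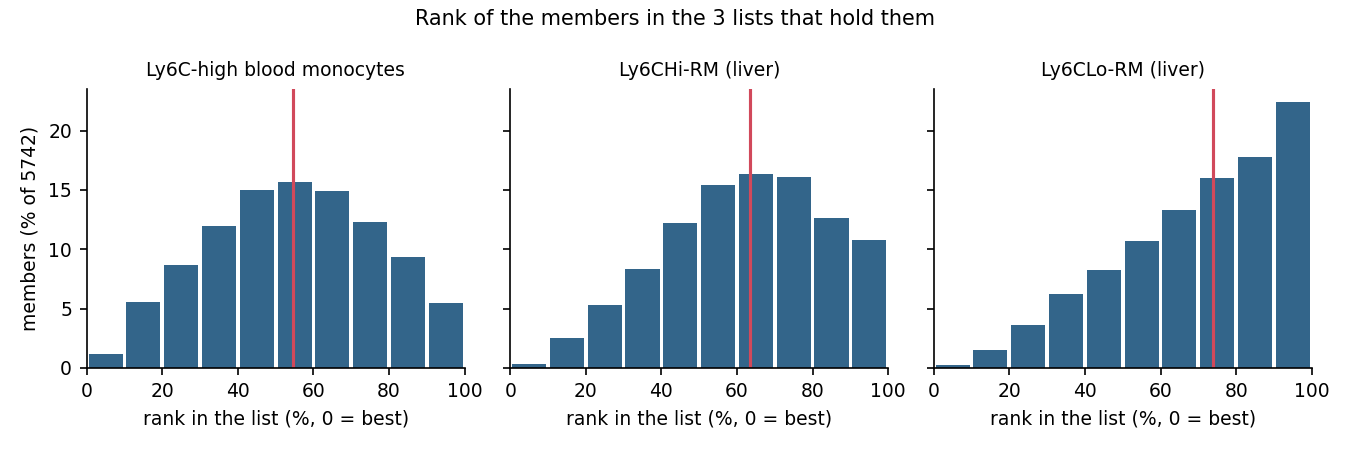
Share of the 5742 members (percent, bars) in each 10% step of the ranks of the list named above each panel, where 0% on the horizontal axis is the best score; the red line is the median rank of the members. Members gather in the middle of the blood list (median 54.7%) and toward the weak end of Ly6CLo-RM (median 73.9%), whose last 10% holds 22.4% of them.

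By gene, the members were spread thinly. Each region was given to the gene that contains its centre, or else to the nearest one within 100 kb, which left 5409 members at 3567 genes, 16.3% of 21887 protein-coding genes and 22.6% of the 15751 genes with any region. A single member was found at 2549 genes, 2 at 613, and 3 or more at 405. Foxp1, a forkhead factor that restrains monocyte differentiation, had the most, 14 of its 76 regions. It was followed by Pde4d, a cAMP phosphodiesterase, with 13 of 56. Ptpre, a tyrosine phosphatase of haematopoietic cells, St8sia1, a sialyltransferase of ganglioside synthesis, Bcl11a, a transcriptional repressor of haematopoietic cells, and Gfod1 had 11 each. Mctp2 and Arhgap26 had 10, Atp2b4, Ralgps1 and Runx3 had 9, Mbp and Runx2 had 8, and Sgms2 and Syne3 had 7. Long genes with many regions lead such a count: members were 14 of 76 regions at Foxp1 but 10 of 18 at Mctp2 and 9 of 13 at Atp2b4.

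At 400 genes a member was present and no region of any F4/80-high list, which is 11.2% of the 3567 genes with a member, against 8.89% of all genes with a region. Of the 405 genes with 3 or more members, 29 (7.16%) had no F4/80-high region, against 2.67% of the 10298 genes with 3 or more regions of any kind. These shares follow in part from the choice, since a gene with a member has a region that the F4/80-high lists lack. Some of the 29 are named here after their values were seen. Mctp2, a calcium-binding membrane protein, had 10 members, and the F4/80-high peak nearest to any of them was 195 kb away. Its strongest member, inside the gene, had signals of 166.9, 89.1 and 55.7, and the one at its start had 68.4, 58.9 and 50.8. Atp2b4, a plasma membrane calcium pump, had 9 members, the nearest F4/80-high peak at 79.9 kb. Signals at its strongest member were 191.6, 238.6 and 167.1.

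Anxa1 had 7 members over 89.8 kb of chromosome 19, from 44.1 kb before the gene to beyond its 3′ end, and no F4/80-high peak within 597 kb of any. Blood signals at these 7 were 18.4, 68.9, 43.7, 158.6, 56.8, 64.5 and 65.5, the highest at the start site. Nrg1, a growth factor of the EGF family, had 4 members with blood signals of 83.4 to 166.4 and the nearest F4/80-high peak 648 kb away. P2ry1, an ADP receptor, had 4 members, with signals of 374.5, 164.1 and 51.4 at its start. Pdlim1, a cytoskeletal LIM protein, had 4, with 277.5, 66.2 and 40.4 at a gene end. Fam20a had 6 members, the strongest at 264.4, 218.8 and 102.2, and F10 had 3. These genes were picked because no F4/80-high region was given to them, so that absence restates the choice. The distance to the nearest F4/80-high peak still varied, from 7.93 kb at F10 to 648 kb at Nrg1.

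**Figure D3:**
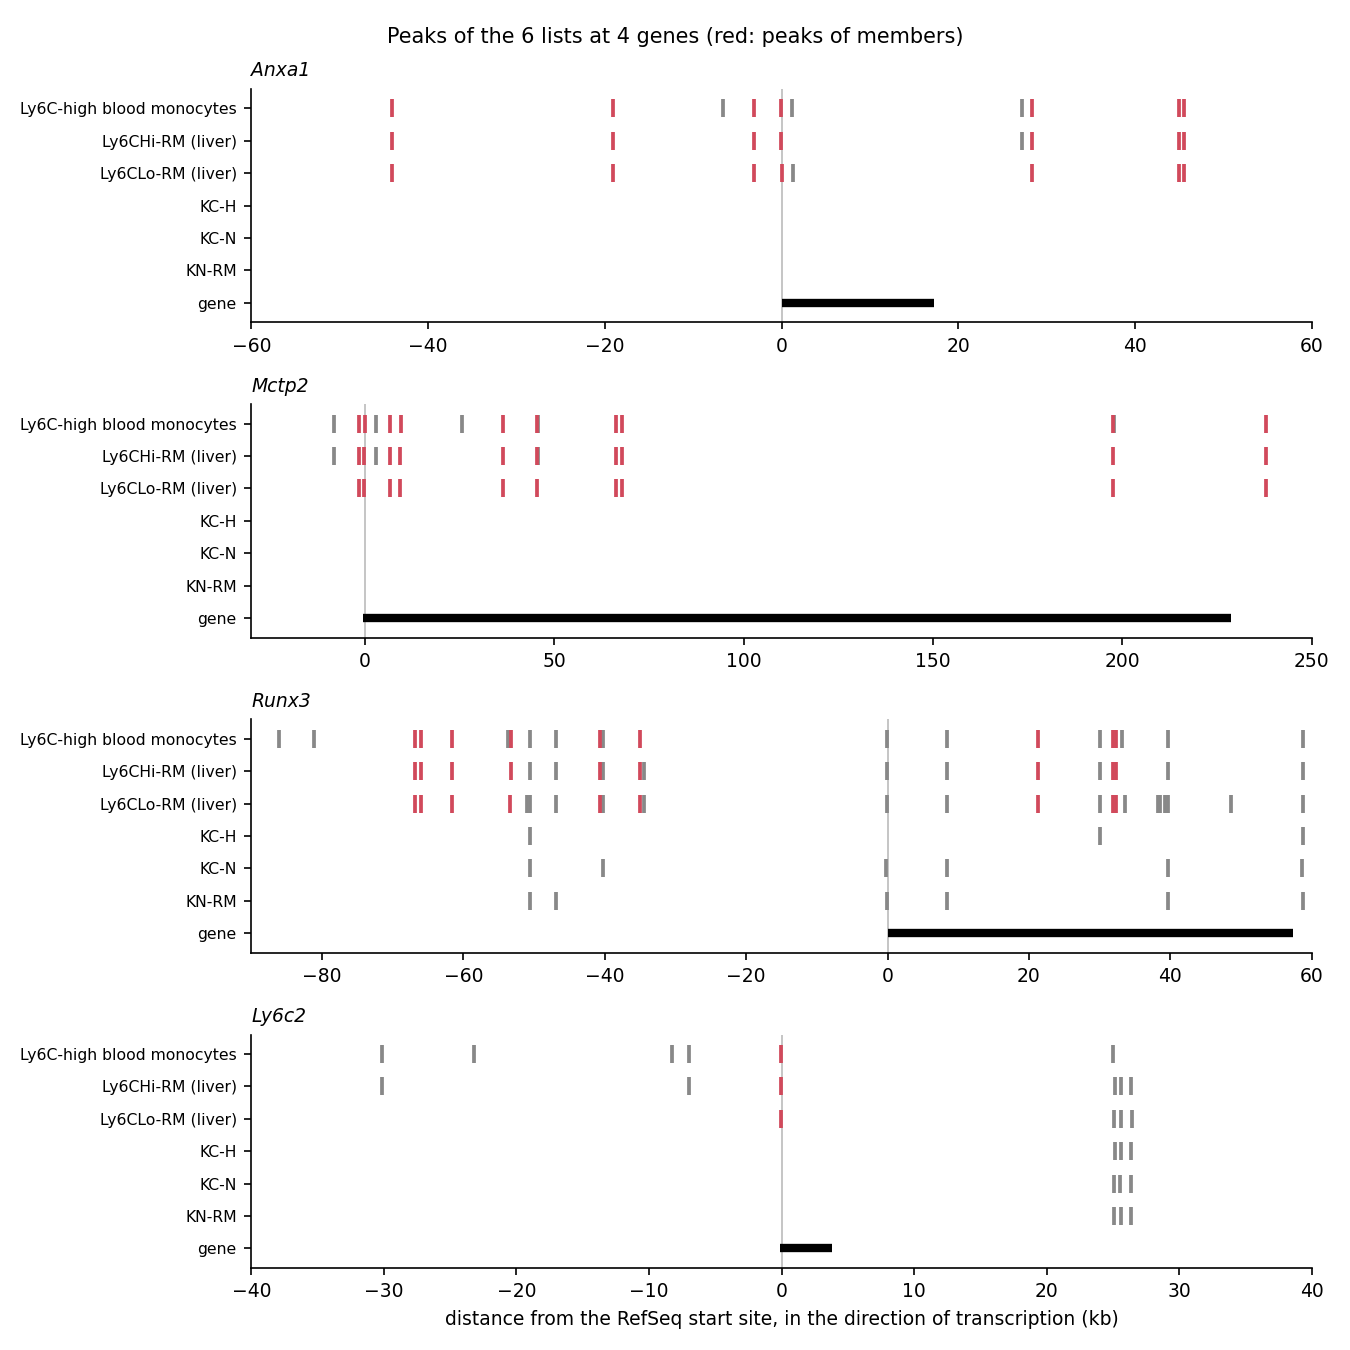
Peaks of the 6 lists (rows) by distance in kb from the RefSeq start site, in the direction of transcription, at Anxa1, Mctp2, Runx3 and Ly6c2; red ticks are peaks of members, grey ticks other peaks, the black bar the gene. Anxa1 and Mctp2 show 7 and 10 members and 0 peaks of KC-H, KC-N and KN-RM in the views, while Runx3 has 9 members among 3, 6 and 6 peaks of those lists.

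Some members lay close to another member, as did regions of the other sets. Another member lay within 10 kb of 26.2% of members (25.1 to 27.4%), against 23.7% (22.6 to 24.7%) of regions of blood and Ly6CHi-RM only, 27.3% (25.4 to 29.4%) of F4/80-high-only regions and 65.1% of regions in all 6 lists. Such a share also depends on how many regions a set holds, here 5742, 6169, 1896 and 25441 in the same order, and no expected share was computed. Among members there were 135 runs of 3 or more and 13 of 5 or more. Mapkapk3, a stress-activated kinase, held the longest, 7 members in 22.8 kb with 3 F4/80-high regions among them. At the start of Bcl11a, 6 members lay within 11.0 kb with 0 F4/80-high regions between them. Their blood signals were 74.2, 89.3, 157.7, 61.1, 59.2 and 111.1. Runs of 5 with 0 F4/80-high regions between them were at Iqsec1, Plec, Rab3ip, Adgra2 and Atp2b4, and the genes of coagulation factors X and VII, F10 and F7, shared a run of 5 with 1 such region.

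Gene lists were described by the share of their regions that were members, beside 5.72% over all regions. Listed genes held 12.4 regions on average and all protein-coding genes 4.36, so counts of genes with a member run above 22.6% for many lists. Ly6C-high monocyte genes had the highest share of the 26 lists under the rule as given, with 29 members among 227 regions (12.8%) at 14 of 25 genes. The share was 7.63% with lists of equal length (3.96% over all regions). Hepatocyte genes (2 of 15 regions) and T and NK cell genes (2 of 23) were higher in that setting. With the better-scored 50% of every list the share was 7.83% (5.20% over all regions). Higher in that setting were hepatocyte (2 of 14), dendritic cell (6 of 46), glycolysis and hypoxia (14 of 126) and T and NK cell genes (2 of 20). Patrolling monocyte genes (7 of 85) and C/EBP, ETS and RUNX factors (18 of 227) were higher too. Under the rule as given, F4/80-high-only regions made up 0.881% at Ly6C-high monocyte genes, against 1.89% over all regions. The Anxa1 members count here, as do 6 at Gda, guanine deaminase, and 2 each at F13a1, coagulation factor XIII, at Fn1, fibronectin, at S100a4 and at Cd44, the hyaluronan receptor. Both regions of S100a4 were members. Without Anxa1 and Gda, which hold 13 of the members, the other 23 genes had 16 among 197 regions (8.12%).

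Single members at marker genes were of modest signal with some exceptions. Ccr2 had 1 member, inside the gene, at 26.2, 22.4 and 28.2. The Fn1 gene end had one at 184.3, 83.3 and 36.7, with the nearest F4/80-high peak 75.9 kb away. Hp, haptoglobin, had one at 171.7, 81.8 and 36.1, and Plac8 one at 65, 20.3 and 20.2. Chil3 had 0 members. Of the patrolling monocyte list, which holds genes of Ly6C-low blood monocytes, 9 of 163 regions (5.52%) were members. Spn, which encodes CD43, had 3 with blood signals of 66.5, 44.6 and 30.6, Nr4a1, the orphan receptor that these cells need, had 1 at 51.4, 32.3 and 67.3, and Cx3cr1, the fractalkine receptor, had 0.

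Kupffer cell identity genes held few members. Of their 253 regions, 1 was a member (0.395%), at Kcna2, and 22 were F4/80-high-only (8.70%, against 1.89% over all regions). At the gene level, 1 of 20 had a member and 7 of 20 an F4/80-high-only region, where 7.99% of genes with any region had one. Timd4, Clec4f, Cd5l, Marco, Vsig4 and Adgre1 had 0 members. LXR and lipid handling targets had 5 members among 244 regions (2.05%), 3 of them at Arl4c, and 28 F4/80-high-only regions (11.5%). Antigen presentation genes had 2 of 173 (1.16%), 1 each at Ciita and Cd86, and Trem2-type lipid-associated macrophage genes 6 of 250 (2.40%). Direction by choice is built into these comparisons: a region of a Kupffer cell gene that is open in F4/80-high cells cannot be a member.

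Adhesion genes had a share of members above that of all regions under the rule as given, and chemoattractant receptor genes a share near it. Integrins and other adhesion molecules had 28 of 297 regions (9.43%) at 13 of 20 genes. The share was 4.76% with lists of equal length, against 3.96% over all regions, and 3.45% with the better-scored 50%, below the 5.20% over all regions. Alcam, an adhesion molecule of the immunoglobulin superfamily, had 5, of which 3 lay within 1 kb of an F4/80-high centre. Itgb3, the integrin beta 3 chain, had 3 with no F4/80-high region at the gene, the strongest at 164.5, 93.2 and 25.7. Selplg, the selectin ligand PSGL-1, had 3, and the member 11.7 kb from Itgam, the CD11b chain on which the liver sort relied, had 183.4, 104.2 and 38. Chemoattractant receptors had 15 of 235 (6.38%), with 5 at Cxcr4, the CXCL12 receptor that holds leukocytes in marrow. Blood signals at Cxcr4 ran from 23.3 to 123.7, and without this gene the share was 4.85%. With lists of equal length the whole list had 4.05%, against 3.96% over all regions. With the better-scored 50% it had 6.02%, against 5.20%. With no F4/80-high centre within 1000 bp it had 4.68%, against 4.90%.

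Transcription factor genes differed by family. C/EBP, ETS and RUNX factors had 35 of 470 regions (7.45%), and 21 of the 35 were at Runx3 (9), Runx2 (8) and Runx1 (4). Without Runx3 and Runx2 the share was 4.42%, below the background, though leaving out the genes with the most members lowers a share by construction. The whole list had 7.46% with lists of equal length, against 3.96% over all regions. With the better-scored 50% it had 7.93%, against 5.20%. At Runx3 the strongest member lay 66.9 kb before the gene with signals of 86.3, 142.2 and 61.2. Runx1 had one inside the gene at 141.7, 83.3 and 67.3. Spi1, which encodes PU.1, had 0 members among 19 regions, of which 16 were in an F4/80-high list. Cebpa, Cebpb and Cebpd had 1 each, all within 1 kb of an F4/80-high centre.

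Lineage repressors and other myeloid factors had 51 of 716 (7.12%), with Foxp1 (14), Bach2 (7), Bhlhe40 (6), Mef2c (5) and Bcl6 (4) foremost, and without Foxp1 the share was 5.78%. The strongest at Bcl6, a repressor of inflammatory genes, lay 87.8 kb away at 182.4, 132.8 and 104.7. Bach2 had 7 members and 2 F4/80-high-only regions, and 362 genes had regions of both kinds. These were 10.1% of genes with a member, where 7.99% of genes with any region had an F4/80-high-only one, and 28.8% of genes with an F4/80-high-only region, where 22.6% of genes with any region had a member. By contrast, KLF, EGR and NR4A factors had 9 of 302 (2.98%), AP-1 and early response genes 9 of 338 (2.66%) and IRF and STAT factors 6 of 210 (2.86%). Stat4, which relays interleukin-12 signals, held 4 of those 6, the nearest F4/80-high peak 65.7 kb away, with blood signals from 22.8 to 110.1. The shares below 5.72% do not say that these genes lacked open chromatin in the 3 lists, only that few of their regions were restricted to them.

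Signalling and metabolic lists stood near the background. Cytokine and growth factor receptors had 21 of 372 (5.65%), of which 5 were at Flt3, the receptor of dendritic cell progenitors, with blood signals from 21.8 to 124.2. Pattern recognition and inflammasome genes had 17 of 271 (6.27%), including 4 at Tlr5, the flagellin receptor, 4 at Aim2, the sensor of cytosolic DNA, and 3 at Tlr2. NF-kB genes had 10 of 246 (4.07%), and TGF-beta, BMP and Notch genes 25 of 385 (6.49%). A member 92.5 kb from Smad3, a transducer of TGF-beta signals, had 241.6, 204.7 and 68.6. Glycolysis and hypoxia genes had 15 of 250 (6.00%), 4 at the phosphofructokinase gene Pfkp, and Fc and myeloid inhibitory receptors 8 of 175 (4.57%).

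Lists for other cells and a control list were read the same way. Neutrophil genes had 0 of 57 regions and B cell genes 0 of 26, T and NK cell genes 7 of 64 (10.9%, at Cd2, Cd247, Cd5, Gata3 and Tcf7), dendritic cell genes 6 of 102 (5.88%), hepatocyte genes 2 of 29 (6.90%) and endothelial and stellate cell genes 2 of 75 (2.67%). Cd3e, which defines T cells, had 1 region in any list and 0 members. Housekeeping genes had 15 of 161 (9.32%), 4 of them near Ywhaz, so a share above 5.72% was also seen in a list with no link to monocytes. It was 2.80% with lists of equal length, below the 3.96% over all regions, and 5.21% with the better-scored 50%, beside 5.20%. In all, 12 of 26 lists were above 5.72% and 2 had no member. The Ly6C-high monocyte share was above that of all regions in all 5 alternative settings and the Kupffer cell share below in all 5, and 15 of 26 lists kept their side in all 5. The other 11 changed side in 1 or more, among them pattern recognition genes, TGF-beta, BMP and Notch genes, integrins, chemoattractant receptors, glycolysis genes and housekeeping genes. Several settings largely repeat the rule as given: autosomes and X only kept all 5742 members, the 50% overlap 5696 and no nearby F4/80-high centre 4915. With lists of equal length and the better-scored 50%, 965 and 595 of the 5742 remained. The side of the Kupffer cell list is also in part built into the choice.

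**Figure D4:**
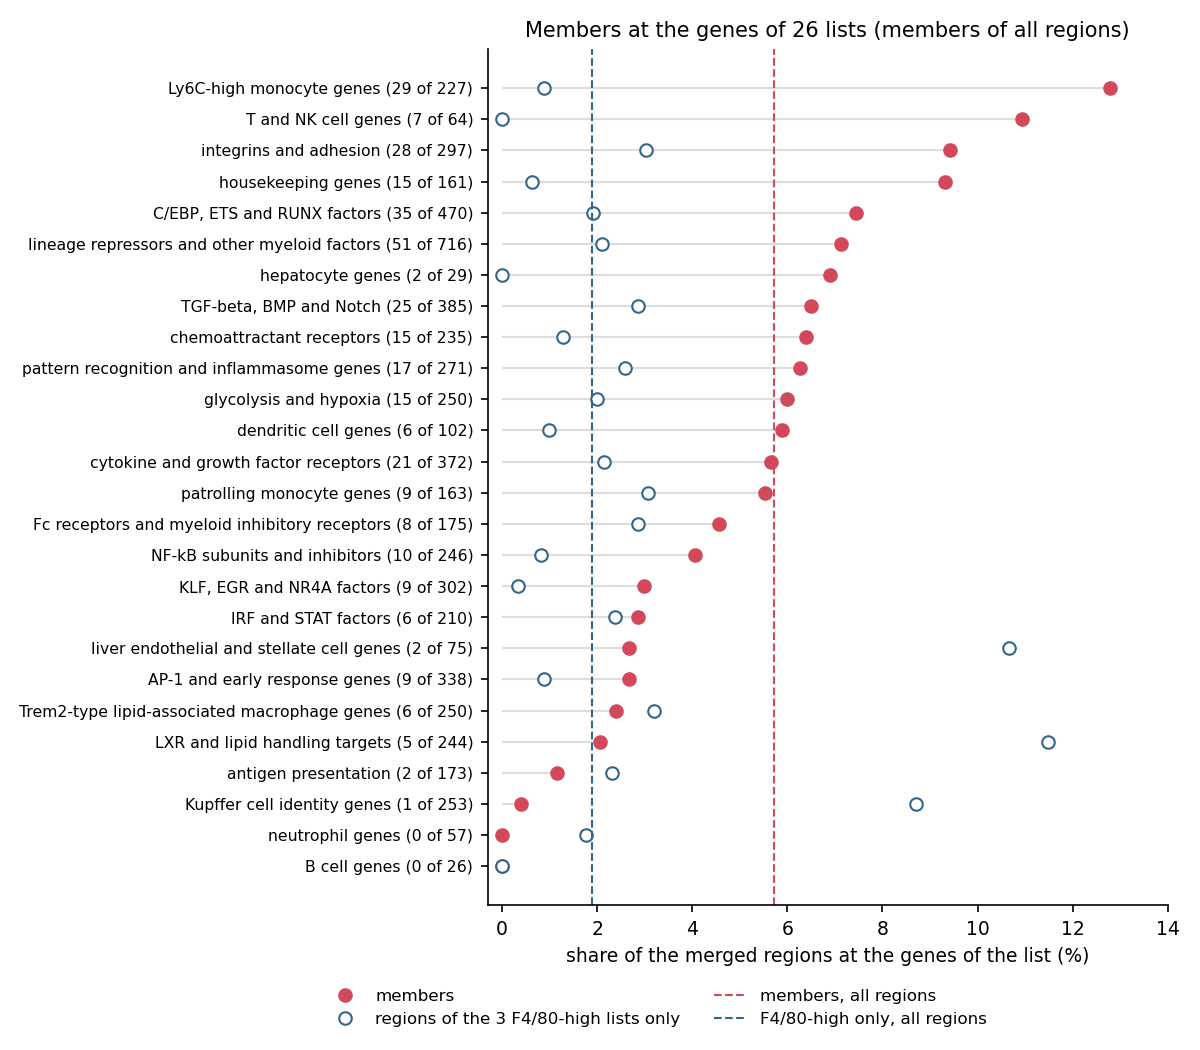
Share of the merged regions at the genes of 26 lists (percent, horizontal axis) that were members (filled red) or found in the 3 F4/80-high lists only (open blue); dashed lines are the shares over all regions, 5.72% and 1.89%, and brackets give members of all regions. Ly6C-high monocyte genes have 12.8% members, Kupffer cell identity genes 0.395% and LXR targets 2.05%, while housekeeping genes have 9.32%.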

How the data were processed

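Chromatin accessibility (ATAC-seq) was measured in 12 libraries, 2 in each of 6 groups. Bowtie2, HOMER, DESeq2 and the builds mm10 and GRCm38 are named, without roles or versions, in the submitters' processing notes; for read filters and depth: not given in the sources used here. Per the labels, each deposited peak list (IDR, irreproducible discovery rate) belongs to both libraries of a group. Its rows hold a position, a signal (the authors' normalized tag count) and a whole-number score from the authors' pipeline. Signals and scores were used only to describe and rank peaks within a list.

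Peaks were merged at an overlap of 1 bp. Gene positions came from RefSeq (GRCm38.p6) without strand, so both ends of a gene count; start sites and sequences came from its promoter table. Motifs, planned for the centres of regions, were searched only in promoter windows because no genome was used here. Named by rule were the 15 genes with the most members, up to 4 per gene list, marker genes, the 10 best-scored members with no F4/80-high centre within 1000 bp, and regions at the 1 bp limit; other genes were named after their values were seen, and results of some genes and of 1 gene list are not reported here. Members and gene lists were chosen with earlier results of these data known. Functions were tested on simulated lists. Python 3.11.15 was used (pandas 2.3.3, numpy 2.4.6, matplotlib 3.10.9, scipy 1.17.1). Alternatives were a 50% overlap, lists of equal length, the better 50% by score of all lists, no nearby F4/80-high centre, autosomes and X only, and other distances. Start sites in place of gene ends, and each F4/80-high list left out, were added after seeing the data.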

Additional observations from a re-analysis of the deposited data

How the results depend on the processing

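No paired analysis was possible because each list was made from both libraries of its group; leaving out a replicate was not possible for the same reason, and motifs in whole regions were not searched because no genome was used here. Of 45 alternative values, 27 stayed within 1.5 times or the counting interval and 18 did not. With lists cut to the 34293 best-scored peaks each, 2249 regions met the rule, of which 965 were among the 5742, at 1664 genes, with 12.1% near a gene end, 11.6% near an F4/80-high centre, 9.12% in the better 50% of all 3 lists and 6 in place of 14 monocyte genes with a member. With the better-scored 50% of every list, 2573 regions met it, 595 of them among the 5742, at 1840 genes and 7 monocyte genes, with 13.6% near a gene end and 11.2% near an F4/80-high centre. Leaving out the KC-H list gave 9339 regions, the KC-N list 6996 and the KN-RM list 5943. The share near an F4/80-high centre was 15.5% with an overlap of 50% and 7.38% within 500 bp. The share near a gene end was 6.45% for members with no F4/80-high centre within 1000 bp, 5.56% within 500 bp, 17.8% within 2500 bp and 5.97% by start sites. The cause of these changes was not tested beyond the construction of each setting. Counting intervals do not cover variation between animals.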
